A study of Macaca mulatta with 30 samples.

Results

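MS4A15 (ENSMMUG00000000017) was followed across fetal rhesus macaque lung and hippocampus after maternal betamethasone. It is 1 gene of 30246 identifiers in the lung counts and was chosen by its measured lung level, which lay above control with both drugs at both times, so its differences from control are given as a description without a test. Lung RNA came from 15 wild-type fetuses, 3 in each of 5 groups. Mothers were given saline (control), the clinical drug at 0.25 mg/kg with delivery after 4 h or 5 days, or Beta-Ac at 0.125 mg/kg with delivery after 6 h or 5 days, in each case by intramuscular injection. The clinical drug (Celestone) is a mix of betamethasone phosphate and betamethasone acetate, and Beta-Ac is the acetate alone, so dose and drug differ together and the early times differ as well. Hippocampus RNA came from 15 fetuses 5 days after saline, the clinical drug or Beta-Ac, 5 in each group, and 9 animals gave both tissues. The lung labels give a gestational age of 124 to 130 days, whereas the hippocampus labels of the 9 shared animals give 131 to 136 days. Whole lung tissue was used, which holds epithelial, vascular, mesenchymal and blood cells together.

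MS4A15 belongs to the membrane-spanning 4A family, small proteins that cross the membrane in 4 passes and of which MS4A1 (the B cell antigen CD20) is the best known. The family has few shared functions. Its members are named for their structure, and several sit in immune cells while others sit in epithelia. In adult tissues MS4A15 transcripts are found mostly in lung, and the protein has been studied in the handling of calcium by the endoplasmic reticulum and in the resistance of cells to ferroptosis, a form of death by lipid peroxidation. Betamethasone acts through the glucocorticoid receptor, and in fetal lung it speeds maturation of the gas-exchanging epithelium.

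Reads counted on genes ranged from 14.1 to 45.0 M in single lung libraries and from 18.3 to 29.3 M in hippocampus. Levels are given as counts per 1 M reads (CPM) after TMM normalization, which scales libraries to one another and does not correct for gene length. The tissue labels were checked against marker genes. Summed over 12 tested alveolar type 2 cell genes, lung libraries had 8892 to 20279 CPM, and over 9 tested neuron genes 73.1 to 128 CPM. The hippocampus libraries had 595 to 753 CPM over 10 type 2 cell genes and 5398 to 8554 CPM over 10 neuron genes. Alveolar type 2 genes were therefore read at a low level in hippocampus, and neuron genes at a low level in lung. Each library is a separate animal.

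In the 3 control lungs MS4A15 had 33 reads (1.96 CPM) in animal 15-92, 21 reads (1.44 CPM) in 15-101 and 66 reads (3.31 CPM) in 16-113. At 4 h after the clinical drug it had 371 reads (8.59 CPM) in 15-81, 44 reads (3.29 CPM) in 15-85 and 101 reads (6.32 CPM) in 15-97. Of these, 15-81 and 15-97 lay above every control, and 15-85 lay just under the highest control, 16-113. At 6 h after Beta-Ac there were 138 reads (6.98 CPM) in 16-123, 136 reads (4.81 CPM) in 16-131 and 78 reads (3.76 CPM) in 17-254, all above the controls. At 5 days the clinical drug lungs had 176 reads (8.11 CPM) in 16-115, 104 reads (3.51 CPM) in 16-120 and 186 reads (7.14 CPM) in 16-126, again all above the controls, with 16-120 close to the highest of them. The Beta-Ac lungs at 5 days had 449 reads (17.5 CPM) in 16-128, 114 reads (4.40 CPM) in 16-130 and 149 reads (5.49 CPM) in 16-136. All 3 exceeded the controls, and 16-128 held the highest level of the 15 lungs, more than the other 2 animals of its group together.

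**Figure D1:**
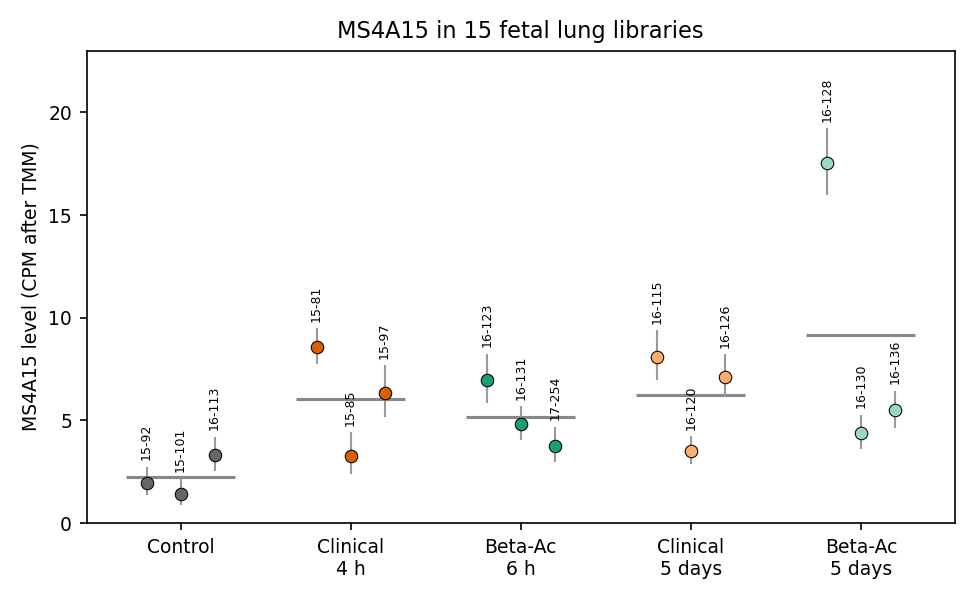
MS4A15 level (TMM-normalized CPM, vertical axis from 0) in each of the 15 lung libraries, by group on the horizontal axis. Points are animals, thin vertical bars are 95% counting intervals and horizontal lines are group means (n = 3). The controls lie between 1.44 and 3.31 CPM, 11 of the 12 treated animals lie above them, and 16-128 stands at 17.5 CPM.

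Counting error alone was modest beside the widest of these differences between animals, but not beside those among the lungs nearest the highest control. With exact Poisson intervals (95%, counting error only), control 15-101 lay between 0.890 and 2.20 CPM, control 15-92 between 1.35 and 2.76 CPM, 15-85 between 2.39 and 4.42 CPM, and 16-128 between 16.0 and 19.2 CPM. The highest control, 16-113, lay between 2.56 and 4.21 CPM, 16-120 between 2.86 and 4.25 CPM and 17-254 between 2.97 and 4.69 CPM. Whether 15-85, 16-120 and 17-254 lay above or below 16-113 is thus within counting error. On the log2 CPM scale the pooled standard deviation within groups was 0.72 (10 degrees of freedom). The mean level was 2.24 ± 0.967 CPM in controls (SD, n = 3), 6.07 ± 2.66 CPM in the 4 h clinical drug group and 5.19 ± 1.64 CPM in the 6 h Beta-Ac group. The 5-day means were 6.25 ± 2.43 CPM for the clinical drug and 9.14 ± 7.29 CPM for Beta-Ac (SD, n = 3 each). By their means the groups ran from control through Beta-Ac at 6 h, the clinical drug at 4 h and the clinical drug at 5 days to Beta-Ac at 5 days, and neighbouring treated groups in this order overlapped in their ranges. By their medians, which were 1.96 CPM in controls, 6.32 CPM and 4.81 CPM at the early times and 7.14 CPM and 5.49 CPM at 5 days, Beta-Ac lay below the clinical drug at both times.

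Fitted over all 15 libraries by edgeR, the log2 fold change against control was 1.44 (standard error 0.55, 95% interval 0.27 to 2.61) at 4 h after the clinical drug, a 2.71-fold higher level. At 6 h after Beta-Ac it was 1.19 (standard error 0.55, interval 0.02 to 2.36), or 2.29-fold. For the clinical drug at 5 days it was 1.46 (standard error 0.55, interval 0.29 to 2.63), or 2.76-fold, and for Beta-Ac at 5 days it was 2.01 (standard error 0.55, interval 0.84 to 3.19), or 4.04-fold. These 4 values share the same 3 controls and chose the gene, so nothing is read from them jointly. Without 16-128 the Beta-Ac value at 5 days was 1.13, and without control 16-113 the 4 values ran from 1.60 to 2.42.

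**Figure D2:**
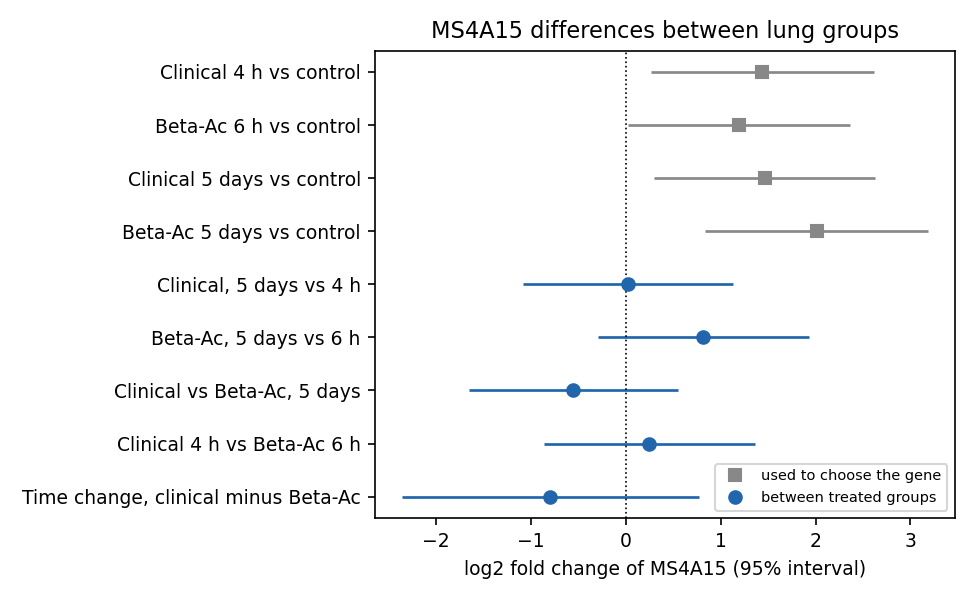
Log2 fold change of MS4A15 in lung (horizontal axis) for the 4 comparisons with control and the 5 between treated groups, from the edgeR fit over 15 libraries. Points are estimates and bars are 95% intervals. The comparisons with control, which chose the gene, lie between 1.19 and 2.01, and each interval between treated groups includes 0.

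A gene was called where its fold change was at least 1.5, its p under 0.05 and its Storey q, an adjusted p over all tested genes, under 0.1. Below, a gene said to rise or fall was called higher or lower by edgeR, and genes without a call may have moved as well. No call is read for MS4A15 in the 4 comparisons with control, which chose it. By edgeR the share of the 17644 tested genes called was 7.4% in the 4 h clinical drug group, 0.442% in the 6 h Beta-Ac group, and 0% and 0.00567% in their 5-day groups. An unadjusted edgeR p under 0.05 was met by 3301 genes at 4 h (clinical drug) and 2021 genes at 6 h (Beta-Ac). At 5 days it was met by 775 genes (clinical drug) and 1133 genes (Beta-Ac). DESeq2 called 1297 and 247 genes at the early times and 16 and 40 genes at 5 days. These counts over all tested genes are the background for the unadjusted and DESeq2 counts of the gene lists below.

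Every treated library lay above every control for MS4A15 in 3 of the 4 groups, and 8 of 9 pairs did so at 4 h after the clinical drug. Over all tested genes such a separation upward was found for 11.1% (4 h, clinical drug), 9.03% (6 h, Beta-Ac), 6.25% (5 days, clinical drug) and 5.73% (5 days, Beta-Ac). At least 11 of 12 treated libraries above all 3 controls, the count of MS4A15, was reached by 1.34% of tested genes, and all 12 by 0.357%. The smallest of its 4 log2 fold changes, 1.19, ranked 91 among the 17644 tested genes, and its mean, 1.53, ranked 184. A log2 fold change above 1 in all 4 groups was found for 139 genes, or 0.788%. The separation, ranks and shares given here for MS4A15 rest on the values that chose it and are a description only. The treated lungs nearest the highest control, 16-113 at 3.31 CPM, were 16-120 just above it at 3.51 CPM and 15-85 just below it at 3.29 CPM.

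Animal numbers moved with the groups. The numbers of all 3 animals at 4 h after the clinical drug begin with 15, and those of the other treated animals with 16 or 17. Controls 15-92 and 15-101 averaged 1.70 CPM, against 6.07 CPM in the clinical drug animals at 4 h. The control whose number begins with 16 had 3.31 CPM, against means of 5.90 CPM at 6 h after Beta-Ac (2 animals), 6.25 CPM at 5 days after the clinical drug and 9.14 CPM at 5 days after Beta-Ac. The number of 1 Beta-Ac animal at 6 h (17-254, 3.76 CPM) begins with 17 and has no control in its series. What the number series stands for is not given in the labels, and its part in the values was not tested.

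Gestational age, as the hippocampus labels give it for the 9 shared animals, was 133, 131 and 135 days in the controls in the order given above. It was 136, 133 and 133 days in the clinical drug animals at 5 days and 133, 133 and 132 days in the Beta-Ac animals. The highest control level of MS4A15 and the highest level in the clinical drug group at 5 days were both in the oldest fetus of their group, whereas 16-128 was of the same age as 16-130. The lung labels give younger ages, as stated above, and the part of age in the values was not tested.

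The choice compared each treated group with control and not the treated groups with one another, whose differences were tested. Since it asked for a level above control at both times, it bears on the treated levels too, and these tests are not fully independent of it. From 4 h to 5 days after the clinical drug the log2 fold change of MS4A15 was 0.02 (standard error 0.52, 95% interval -1.09 to 1.13, edgeR adjusted p = 0.604). From 6 h to 5 days after Beta-Ac it was 0.82 (standard error 0.52, interval -0.29 to 1.93, edgeR adjusted p = 0.659). In neither drug was a change with time detected, though a change of about 2-fold in either direction lies within the interval for the clinical drug. The Beta-Ac value was -0.06 without 16-128.

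Between the drugs at 5 days, clinical drug minus Beta-Ac, the difference was -0.55 (standard error 0.51, interval -1.65 to 0.55, edgeR adjusted p = 0.999). It was 0.34 without 16-128. The 4 h clinical drug lungs and the 6 h Beta-Ac lungs differed by 0.25 (standard error 0.52, interval -0.87 to 1.36, edgeR adjusted p = 0.511). The difference of the time effects, clinical drug minus Beta-Ac, was -0.80 (standard error 0.73, interval -2.36 to 0.77, edgeR adjusted p = 0.481). None of these 5 comparisons passed the threshold, and the intervals are too wide to show that the treated groups were alike. For the background, edgeR called 10.4% of tested genes from 4 h to 5 days after the clinical drug, 0.261% from 6 h to 5 days after Beta-Ac, 6.74% between the drugs at the early times, 0% between them at 5 days and 2.36% for the difference of the time effects.

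Genes known as glucocorticoid targets were described over the same libraries. MS4A15 was chosen for a level above control at both times and these genes were not, so their courses are set beside its own without a test. Of 14 genes on this list 10 were tested, and edgeR called 8 higher at 4 h after the clinical drug and 5 at 6 h after Beta-Ac. At 5 days edgeR called no member for either drug. An unadjusted p under 0.05 was met there by TAT after the clinical drug, which was lower than in controls (log2 fold change -1.57). It was also met by MFSD2A after Beta-Ac, which was higher (2.05), and DESeq2 called MFSD2A. The background for higher calls was 3.46% and 0.368% of tested genes at the early times. At 6 h after Beta-Ac an unadjusted p under 0.05 was met by 8 of the 10, and DESeq2 called 8. Of all 17644 tested genes 2021 met it there, and DESeq2 called 247. The median log2 fold change of the 10 genes was 1.79, 1.37, 0.17 and 0.23 at 4 h, 6 h, 5 days (clinical drug) and 5 days (Beta-Ac), where the median of all tested genes was 0.02, 0.02, 0.00 and 0.01. From 4 h to 5 days after the clinical drug 8 of the 10 were called lower, where 4.47% of all tested genes were. From 6 h to 5 days after Beta-Ac FKBP5, ZBTB16 and PER1 were called lower, where 0.227% of tested genes were. All 10 estimates were negative in both comparisons.

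FKBP5, a chaperone of the glucocorticoid receptor, had mean levels of 5.61 CPM in controls, 173 CPM at 4 h after the clinical drug, 52.0 CPM at 6 h after Beta-Ac, and 6.19 and 6.15 CPM at 5 days. Its log2 fold change from 4 h to 5 days was -4.80, and from 6 h to 5 days it was -3.08 (edgeR q = 0.0278). ZBTB16, a transcription factor, had 9.48 CPM in controls, 203 and 124 CPM early and 13.3 and 12.1 CPM at 5 days. PER1, a component of the circadian clock, had 153 CPM in controls, 754 and 526 CPM early and 178 and 174 CPM at 5 days. The 5-day means of these 3 genes were closer to those of controls than their early means were.

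MFSD2A, a lipid transporter on the same list, rose by 4.80 and 3.01 on the log2 scale at the early times and at 5 days had a mean of 2.13 CPM after the clinical drug and 8.31 CPM after Beta-Ac against 1.96 CPM in controls. Neither 5-day level was called by edgeR. GLUL, which makes glutamine, had 252 CPM in controls, 728 and 535 CPM early and 321 and 282 CPM at 5 days. CEBPD, a transcription factor that rose at 4 h after the clinical drug, had 31.3 CPM in controls, 73.9 and 87.7 CPM early and 53.6 and 47.6 CPM at 5 days. For both GLUL and CEBPD all 12 treated lungs lay above all 3 controls, as in 0.357% of tested genes. The lowest treated lung had 277 CPM and the highest control 270.1 CPM for GLUL, and 38.5 and 36.8 CPM for CEBPD.

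**Figure D3:**
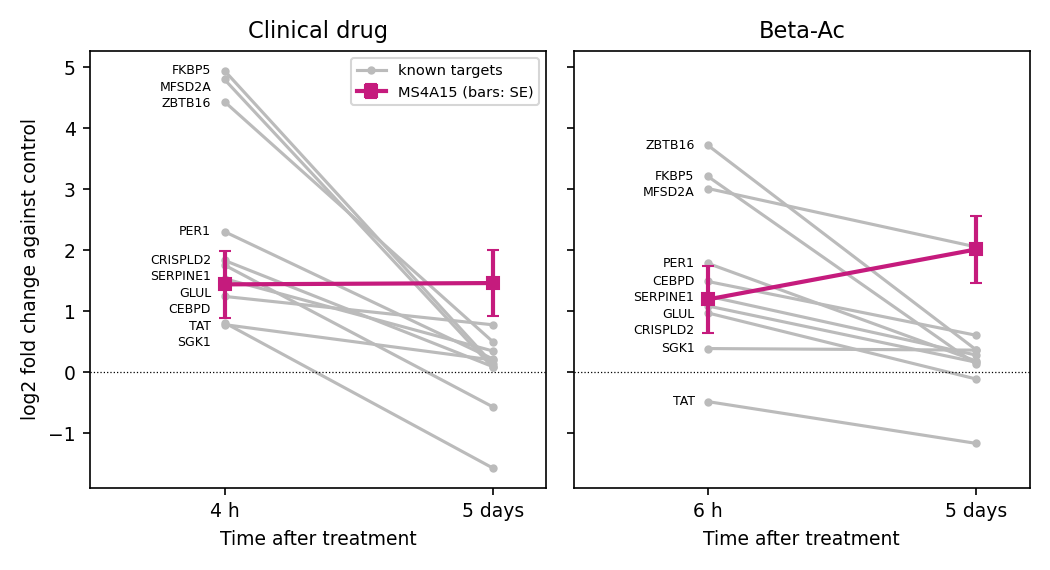
Mean log2 fold change against control (vertical axis) at the early time (4 h or 6 h) and at 5 days for MS4A15 and for glucocorticoid target genes, with the clinical drug and Beta-Ac in separate panels and bars of 1 standard error for MS4A15. MS4A15 lies at 1.44 and 1.46 with the clinical drug and at 1.19 and 2.01 with Beta-Ac, whereas FKBP5, ZBTB16 and PER1 fall from the early time to 5 days.

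The cell types in which MS4A15 was read cannot be seen in whole lung, where fewer cells of a type and less RNA per cell cannot be told apart. Its level was therefore set beside summed marker lists in the same libraries. Over the 15 lungs, which share the 5 groups, Pearson's r of its log2 CPM was 0.67 (Spearman's rho 0.65) with the alveolar type 2 sum, 0.53 (0.60) with the airway secretory sum, 0.52 (0.54) with the mesenchymal sum and 0.49 (0.44) with the airway ciliated sum. It was 0.43 (0.43) with macrophages and monocytes, 0.21 (0.22) with alveolar type 1 cells, 0.22 (-0.01) with airway basal cells, 0.13 (0.25) with erythroid cells, -0.22 (-0.19) with B and T cells and -0.36 (-0.23) with endothelial cells. The median r of single list members was 0.45 for type 2, 0.46 for ciliated, 0.42 for secretory and 0.02 for type 1 genes, and it was 0.02 over all tested genes, of which 90% lay between -0.44 and 0.47.

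Alveolar type 2 cells make surfactant. The sum of their 12 tested genes was 10702 CPM on average in controls (8892 to 13559), 17052 CPM at 4 h after the clinical drug, 14555 CPM at 6 h after Beta-Ac, 12748 CPM at 5 days after the clinical drug and 15110 CPM at 5 days after Beta-Ac. Surfactant protein C (SFTPC, r = 0.64 with MS4A15) had 3511 CPM in controls, 7706 and 5630 CPM early, and 4129 and 5172 CPM at 5 days. Surfactant protein B (SFTPB, r = 0.53) ran from 3365 CPM in controls to 5037 CPM at 4 h after the clinical drug. ABCA3, the lipid pump of surfactant granules (r = 0.51), ran from 201 to 384 CPM between the same groups, and LAMP3, a membrane protein of the same granules (r = 0.46), from 60.6 to 145 CPM. At 4 h after the clinical drug 6 of the 12 were called higher (LRRK2, LAMP3, SFTPC, HHIP, ABCA3 and ETV5), where 3.46% of all tested genes were. EdgeR called none in the 3 other treated groups. An unadjusted p under 0.05 was met there by 6 of the 12 at 6 h after Beta-Ac. It was met by 1 at 5 days after the clinical drug and by 6 at 5 days after Beta-Ac. DESeq2 called 3, 0 and 1 of the 12 in the same order. Of all 17644 tested genes 2021, 775 and 1133 had such a p in this order, and DESeq2 called 247, 16 and 40.

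The lining of the gas exchange surface is formed by alveolar type 1 cells, whose 14 tested genes summed to between 5964 and 8111 CPM in every lung. AGER, a receptor that defines them, had 1083 CPM in controls and between 1169 and 1480 CPM in treated groups. PDPN had 27.8 CPM in controls and 24.2 to 32.4 CPM in treated groups, and no call. HOPX, SCNN1A and CLDN18 rose and RTKN2 fell at 4 h after the clinical drug, by log2 values of 1.29, 1.17, 0.93 and -0.65. Of all tested genes 3.46% rose and 3.94% fell in this comparison. CLIC5, another marker, had 289 CPM in controls and 208 CPM at 4 h after the clinical drug, with no call there. CLDN18, a tight junction protein that type 1 and type 2 cells both hold, had the highest r with MS4A15 of these named genes, 0.57.

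The airway secretory and ciliated sums had a positive r with MS4A15 over the 15 lungs, though single lungs went against it. The airway secretory sum (7 tested genes) was 183 CPM in controls, 268 CPM at 4 h after the clinical drug, 480 CPM at 6 h after Beta-Ac, and 275 and 474 CPM at 5 days. SCGB3A2, a secretory protein of the small airways (r = 0.54), had 40.0 CPM in controls, 88.2 and 164.03 CPM early and 55.8 and 201 CPM at 5 days. SCGB1A1, the club cell protein, had 50.1 CPM in controls and between 73.8 and 106 CPM in treated groups. For the ciliated sum (9 tested genes) the means were 54.9 CPM in controls (27.4 to 94.3), 62.7 CPM at 4 h, 122 CPM at 6 h, 81.6 CPM at 5 days after the clinical drug and 124 CPM at 5 days after Beta-Ac (48.1 to 248). Animal 16-128, the highest for MS4A15, also had the highest ciliated sum, 248 CPM, and the highest secretory sum, 731 CPM. At 4 h after the clinical drug, 15-81 was highest of its group for MS4A15 and for both sums, 445 and 109 CPM. Among the controls the order was the reverse, since 15-101, the lowest for MS4A15, had the highest ciliated sum, 94.3 CPM. Animal 17-254, the lowest of its group for MS4A15 (3.76 CPM), had the highest secretory and ciliated sums there, 678 and 142 CPM. Animal 15-97, at 6.32 CPM, had the lowest of both sums among treated lungs, 143 and 34.7 CPM. No gene of either airway list was called by edgeR in any treated group against control. Of the 7 secretory genes 3 had an unadjusted p under 0.05 at 6 h and 4 at 5 days after Beta-Ac, and DESeq2 called 2 and 1. Of the 9 ciliated genes 2 and 1 had such a p, and DESeq2 called none. Of all 17644 tested genes 2021 and 1133 had such a p in these groups, and DESeq2 called 247 and 40. The part of airway tissue in the MS4A15 values was not tested.

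Set against 1000 CPM of the type 2 sum, MS4A15 stood at 0.203 ± 0.0413 CPM in controls (SD, n = 3). It stood at 0.344 ± 0.0931 and 0.366 ± 0.119 in the early clinical drug and Beta-Ac groups (SD, n = 3 each). In their 5-day groups it stood at 0.479 ± 0.139 and 0.613 ± 0.503 (SD, n = 3 each). In each early group 2 of 3 lungs lay above all controls, and the Beta-Ac lungs at 5 days ran from 0.315 to 1.19. Per 1000 CPM of the type 1 sum the means were 0.352 in controls and 0.852, 0.799, 0.976 and 1.33 in the treated groups. Per 1000 CPM of the ciliated sum they were 60.7 in controls (15.3 to 121) and 112, 43.5, 78.2 and 78.4. Per 1000 CPM of the secretory sum they were 14.7 in controls and 26.3, 12.1, 22.3 and 17.7. These ratios contain the values that chose the gene and are a description. Between lungs the sums themselves varied 5.75-fold (secretory), 9.08-fold (ciliated), 1.36-fold (type 1) and 2.28-fold (type 2).

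**Figure D4:**
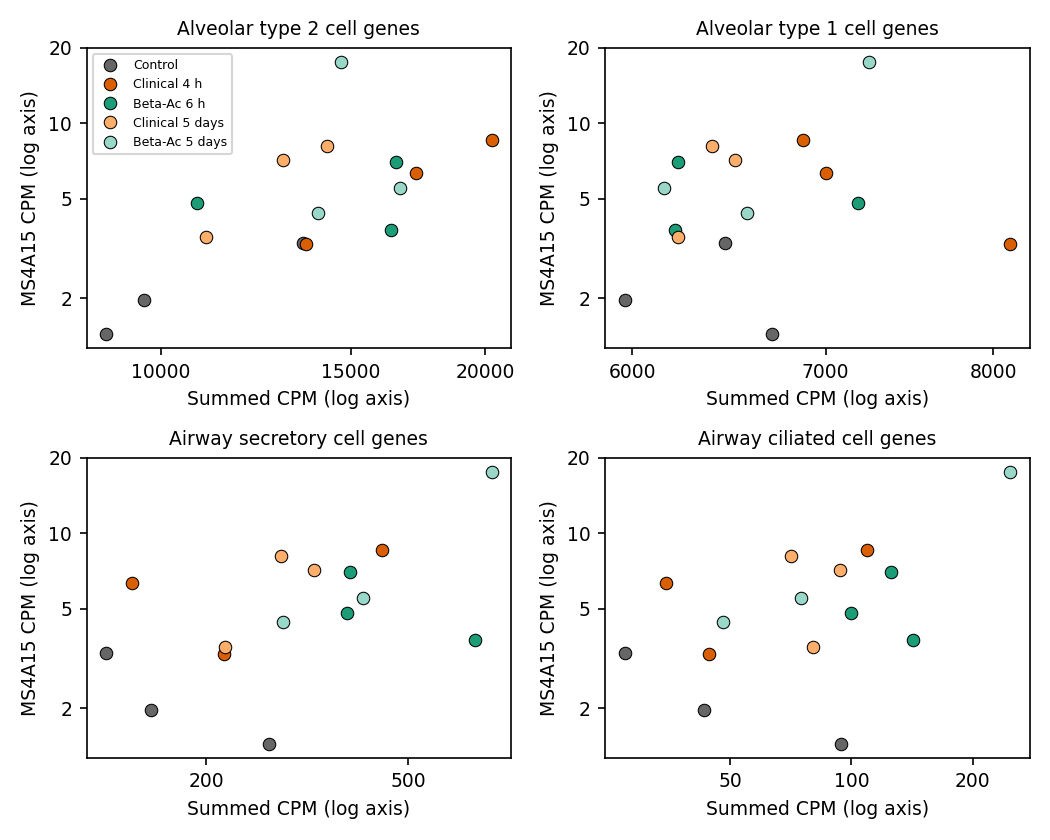
MS4A15 level (CPM, vertical axis) against the summed CPM of marker genes (horizontal axis) for alveolar and airway cell types, both on log scales, with 1 point for each of the 15 lungs coloured by group. Pearson's r on the log2 scale is 0.67 for type 2, 0.21 for type 1, 0.53 for secretory and 0.49 for ciliated genes, and 16-128 lies at the upper right of both airway panels.

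Of the other cell type lists, that of B and T cells held the most calls. At 4 h after the clinical drug 5 of 7 B and T cell genes were called lower (CD3E by 2.09 on the log2 scale), and all 7 estimates were negative. KDR of 7 endothelial genes fell by 1.16, NGFR of 3 basal genes fell by 1.19, and CD163 of 9 macrophage and monocyte genes rose by 1.81. The background in this comparison was 3.94% of tested genes for lower calls and 3.46% for higher calls. No mesenchymal or erythroid gene was called there by edgeR. No gene of these 6 lists was called in the 3 other groups by edgeR or DESeq2. In those groups at most 4 members of a list had an unadjusted p under 0.05. Over all 17644 tested genes such a p was met by 2021 (6 h, Beta-Ac), 775 (5 days, clinical drug) and 1133 (5 days, Beta-Ac).

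Of 18 genes listed for the MS4A family, 6 besides MS4A15 were tested in lung, and edgeR called none of them against control in any of the 4 groups, nor did DESeq2. An unadjusted p under 0.05 was met by MS4A6A at 4 h and by MS4A4A at 5 days after both drugs. Over all 17644 tested genes it was met by 3301 at 4 h, and by 775 (clinical drug) and 1133 (Beta-Ac) at 5 days. MS4A4A, a macrophage member, came closest to MS4A15 over the libraries (r = 0.56), with log2 fold changes of 0.78, 0.54, 0.86 and 0.97 in the order 4 h, 6 h, 5 days (clinical drug) and 5 days (Beta-Ac). Its mean level was 0.879 CPM in controls and 1.49, 1.28, 1.60 and 1.73 CPM in these groups. MS4A8, an epithelial member, had 0.51, 2.91, 0.86 and 2.11 with standard errors of 1.37 to 1.38, since its reads ran from 0 to 283 per lung. MS4A1, the B cell member, had -0.97, 0.21, 0.55 and 0.25, and it rose from 4 h to 5 days after the clinical drug by 1.51 on the log2 scale (edgeR q = 0.0637), where 5.92% of tested genes rose.

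MS4A6A, found in monocytes and macrophages, had -1.25, -0.28, -0.07 and 0.43. MS4A14 had -0.32, -0.13, -0.08 and 0.04 with 43 to 386 reads per lung, and TMEM176B, a distant relative with 1017 to 2880 reads per lung, had -0.15, 0.07, 0.15 and 0.10. The median over the 6 was -0.24, 0.14, 0.35 and 0.34. Below the read minimum stood MS4A10, MS4A5, MS4A13 and MS4A6E, with 2, 5, 4 and 7 reads over all 15 lungs, and MS4A12, with 0. MS4A7 and MS4A18 were read only in the hippocampus counts, which use another annotation set, with 1821 and 17 reads over 15 libraries.

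MS4A15 lies in a cluster of its family. In the RefSeq annotation of the rhesus assembly T2T-MMU8v2.0, which is not the build of the counts and was used for gene order only, MS4A10 precedes it, MS4A18 follows it, and MS4A8 and MS4A13 stand farther along on the same side as MS4A18. A long noncoding RNA, LOC144334199, overlaps MS4A15 in that annotation. Whether reads were counted by strand is not given in the sources used here, so reads of an overlapping transcript could not be separated from those of MS4A15. The tested neighbours CCDC86 (0.02, -0.07, -0.10 and 0.11 on the log2 scale, with 6234 reads in all) and ZP1 (0.40, 0.34, 0.26 and 0.08, with 203 reads) were not called.

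ER calcium and ferroptosis genes, the processes in which MS4A15 has been studied, were described from fixed lists. Of 16 tested genes of ER calcium stores and their refilling, STIM1, the calcium sensor of the ER, rose at 4 h after the clinical drug, from a mean of 102 CPM in controls to 189 CPM, a log2 fold change of 0.89, and fell back by 0.94 to 98.5 CPM at 5 days. This 1 of 16 is to be read against the 3.46% of all tested genes that rose at 4 h and the 4.47% that fell from 4 h to 5 days. No other gene of this list was called against control by edgeR, and between 1 and 3 genes had an unadjusted p under 0.05 in the 3 other groups. Such a p was met by 2021, 775 and 1133 of all 17644 tested genes in the order 6 h, 5 days (clinical drug) and 5 days (Beta-Ac). The median log2 fold change of the list was 0.09, 0.03, -0.05 and -0.04.

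Of 32 tested ferroptosis genes, ACSL4, ACSL3 and GCH1 rose at 4 h after the clinical drug, and ACSL4 rose at 6 h after Beta-Ac. Of all tested genes 3.46% and 0.368% rose in these comparisons. An unadjusted p under 0.05 was met by 9, 5, 0 and 4 of the 32 in the order 4 h, 6 h, 5 days (clinical drug) and 5 days (Beta-Ac). Of all 17644 tested genes it was met by 3301, 2021, 775 and 1133 in the same order. ACSL4, which activates polyunsaturated fatty acids for membrane lipids, had 104 CPM in controls, 340 and 232 CPM early and 121 and 159 CPM at 5 days. ACSL3, which activates fatty acids as well, had 40.7 CPM in controls and 102 CPM at 4 h, and GCH1, the first enzyme of tetrahydrobiopterin synthesis, had 4.83 and 11.3 CPM. All 3 fell from 4 h to 5 days after the clinical drug, by 1.49, 1.19 and 1.03 on the log2 scale. TFRC, of the same list, rose there by 0.67 (edgeR q = 0.0117). Of all tested genes 4.47% fell and 5.92% rose in this comparison. The median log2 fold change of the 32 genes was 0.04, 0.05, -0.03 and -0.01, and their median r with MS4A15 was -0.05.

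The genes whose log2 CPM was most like that of MS4A15 over the 15 lungs were taken from 12455 tested genes with a symbol. Highest were MAFG (r = 0.85), a small Maf transcription factor, and IL17RA (0.82), the receptor chain for interleukin 17. They were followed by CILP (0.81), TTC39A (0.79), TMEM52 (0.79), GP6 (0.79), NRSN2 (0.77) and SMPD3 (0.77). Likeness in shape went with much smaller changes. MAFG had 17.0 CPM in controls and 19.1 to 21.2 CPM in treated groups, and IL17RA 34.2 CPM and 38.0 to 40.3 CPM. SMPD3, a sphingomyelinase, was the gene of the 8 with changes of the size of those of MS4A15, with log2 fold changes of 1.62, 2.03, 1.59 and 1.60.

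Lowest were SUSD4 (r = -0.85), GIT2 (-0.83) and FAXC (-0.80). SUSD4, a regulator of complement, had 157 CPM in controls and 106, 113, 111 and 111 CPM in treated groups, so its level differed from control by nearly the same amount at both times. GIT2 had 135 CPM in controls and 106 to 121 CPM in treated groups, and FAXC 13.4 CPM and 10.5 to 10.7 CPM. With r over 12455 genes and 15 points that share groups, high values are found for some genes in any case, and no test was made. By Spearman's rho 3 of the 8 stayed among the 8 highest and 7 among the 50 highest.

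All 12 treated lungs lay above all 3 controls for 63 genes, 52 of them with a symbol. MS4A15 missed this set through 15-85 alone. Of these 52, the 8 with the highest mean fitted log2 fold change included SLC6A20, U4, PPP1R1B, LRRC10B, DPYSL5, CAPN9 and SMPD3. SLC6A20, an amino acid transporter, was at 0 in all controls and between 0.0482 and 7.19 CPM in treated lungs, so no fold is given. PPP1R1B, an inhibitor of protein phosphatase 1, ran from 0.351 to 0.548 CPM in controls and from 0.830 to 6.13 CPM in treated lungs, and CAPN9, a calpain protease, from 0.178 to 0.552 CPM and from 0.626 to 2.46 CPM.

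LRRC10B ran from 0.251 to 0.411 CPM in controls and from 0.424 to 3.52 CPM in treated lungs, DPYSL5 from 0 to 0.205 CPM and from 0.236 to 0.830 CPM, and SMPD3 from 0.137 to 0.476 CPM and from 0.479 to 1.80 CPM. U4, a small nuclear RNA with many near-identical copies whose reads are uncertain, had at most 0.0595 CPM in controls and 0.0708 to 0.391 CPM in treated lungs. SCGB3A2, ABCA3 and CLDN18, described above, were among the 52.

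In hippocampus MS4A15 had 3 reads among 356 M over 15 libraries. Control CTL092 had 1 read, control CTL101 had 1, Beta-Ac library BAC130 had 1, and each of the other 12 libraries had 0. By group this was 2 reads in controls, 0 after the clinical drug and 1 after Beta-Ac, at or below the 3 reads that a count of 0 allows in a group, which correspond to 0.0253, 0.0271 and 0.0236 CPM. A difference between hippocampus groups was thus not detectable at this depth, and no fold or test is given. The groups follow the library names, since the treatment and dose fields beside them give Beta-Ac and the clinical drug the other way round.

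The 9 animals with both tissues showed MS4A15 as a lung transcript in each group. The 3 controls had 120 reads among 49.9 M in lung and 2 among 69.4 M in hippocampus, a ratio of CPM of 83.4 (95% counting interval 22.6 to 697). The 3 clinical drug animals had 466 reads among 76.5 M in lung and 0 among 66.8 M in hippocampus, at least 136-fold more against a floor of 3 reads over the group. The 3 Beta-Ac animals had 712 reads among 78.0 M and 1 among 74.7 M, a ratio of 682 (122 to 26990). Reads here are scaled by library totals alone. The tissues were annotated separately and these intervals cover counting error only, so the ratios are set side by side without a test.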

How the data were processed

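Frozen whole lung and hippocampus were sequenced, with paired-end 75 bp reads after polyA selection per the hippocampus labels. The deposited values are whole read counts per Ensembl gene, which the authors made by alignment to MMUL1.0 (Bowtie 2 in the methods, Bowtie 1.2.1.1 in the submitters' processing notes for lung) and featureCounts (1.5.1 for lung). Strand setting is not given in the sources used here. The count tables of the tissues use different annotation sets, and 20572 identifiers were shared.

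The 17644 genes reaching 7 reads in 3 or more lung libraries were tested by edgeR 4.0.16 (R 4.3.3), TMM and the quasi-likelihood F-test in a single fit of 15 libraries, with Storey q. In hippocampus the filter was 7 reads in 5 libraries, which MS4A15 did not pass. The prior count was 0.125 for fold changes and 2 for log2 CPM. Read totals, and counting intervals from them, set the precision of a library, and the spread between animals that of a group. The procedure was tested on simulated counts. MS4A15 and the gene lists (MS4A family, 10 lung cell types, neurons, ER calcium stores, ferroptosis, glucocorticoid targets) were chosen with earlier results of these data known. Named genes were the family members, the 8 genes most and 3 least like MS4A15, the 8 genes with the highest mean change among those with all treated lungs above all controls, called list members (at most 3 in each direction, except where all are given), and defining markers. CCDC86, ZP1 and the other named genes outside this rule were chosen after their values were seen. Alternatives were RLE normalization, other filters, only the 2 groups compared, DESeq2 1.42.0, Benjamini-Hochberg adjustment, and each animal left out. Gene symbols came from the reference tables (52.1% of lung identifiers). Sequences were not used here, and some genes that the rule names are not reported here.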

Additional observations from a re-analysis of the deposited data

Results flagged for a closer look

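In hippocampus, library BAC130 stood apart from the other 4 Beta-Ac libraries in MS4A15, with 1 read against 0 in each of them, which is a single count and lies within counting error. With counts this low, any group with 1 read in 1 library and 0 in the others is marked, so the mark says nothing about this library.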

How the results depend on the processing

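RLE normalization, filterByExpr, no filter, DESeq2 and, except for the difference of the time effects, a fit of only the compared groups kept the direction of each lung value, with log2 fold changes against control of 1.42 to 1.43 (clinical drug, 4 h), 1.18 to 1.19 (Beta-Ac, 6 h), 1.46 to 1.47 (clinical drug, 5 days) and 2.01 to 2.03 (Beta-Ac, 5 days). Between treated groups the adjusted p stayed between 0.467 and 1, Benjamini-Hochberg adjustment included. With each animal left out, the values against control ran from 1.07 to 1.85, 0.92 to 1.60, 1.23 to 1.87 and 1.13 to 2.42, in the same order. They ran from -0.25 to 0.39 for the clinical drug from 4 h to 5 days (-0.25 without 15-85, -0.21 without 16-115, -0.068 without 16-126), from -0.11 (without 15-81) to 0.53 between the early groups, from -0.062 (without 16-128) to 1.15 for Beta-Ac from 6 h to 5 days, from -0.88 to 0.34 (without 16-128) between the drugs at 5 days, and from -1.13 to 0.10 (without 16-128) for the difference of the time effects. The cause was not tested. Spearman's rho kept 3 of the 8 genes most like MS4A15, and RLE kept 7. With hippocampus groups by the treatment field, Beta-Ac had 0 reads and the clinical drug 1. The hippocampus fits (RLE, filters, DESeq2, sequencing run as a block, animals left out) were not run, because all groups were at or under 3 reads. Lung groups could not be compared as pairs, because each holds different animals and lung replicate numbers only follow accession order. With 3 animals per group, the 95% intervals between 2 treated groups reached about 2-fold in each direction around the estimate, and that of the difference of the time effects was wider.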
